A study of Mus musculus with 17 samples.

Results

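The genes described here encode the machinery of oxidative phosphorylation. They were chosen by symbol: every gene with a probe set of its own whose symbol begins with Nduf, Uqcr, Atp5 or Cox4 to Cox8, together with Sdha, Sdhb, Sdhc and Sdhd. 89 of the 22180 genes with a single-symbol probe set met this rule, and each was read from its probe set of highest mean. They comprise 32 subunits and 8 assembly factors of complex I, 4 subunits of complex II, 7 of complex III, 11 of complex IV, 17 of complex V, 8 tissue-restricted isoforms of complex IV subunits and 2 pseudogenes.

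Oxidative phosphorylation takes place at the inner mitochondrial membrane. Complexes I and II pass electrons from NADH and succinate to ubiquinone, complex III passes them on to cytochrome c, and complex IV delivers them to oxygen; complexes I, III and IV pump protons, and complex V, the ATP synthase, makes ATP as the protons flow back. Several complex IV subunits exist as a common form and as forms known from muscle, heart, lung or testis, and blood stem cells are generally described as relying less on this pathway than their dividing progeny.

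9 mouse blood cell populations were profiled on 17 arrays (Affymetrix Mouse Gene 2.0 ST), which report a log2 expression value per probe set. The bone marrow gave stem cells (HSC, haematopoietic stem cells), LMPP, which are lymphoid-primed multipotent progenitors, and CMP, the common myeloid progenitors, sorted with or without the receptor Flt3 (flt3+ CMP and flt3- CMP). It also gave CLP, the common lymphoid progenitors, natural killer cells (NK) and EILP, the early innate lymphoid progenitors. The thymus gave ETP, its early progenitors, and DN3, double-negative thymocytes of stage 3. EILP had 1 array and each other population had 2. The series was built to place EILP among the other progenitors. Cells were sorted from pools of chimeric mice: marrow of TCF-1 GFP reporter donors had been given to B6 CD45.1 recipients after 900 rads of irradiation, and the mice were used 12 weeks later; the design text names every population in this scheme except NK, and states neither the mice per pool nor the ages. Every population named there therefore carried the reporter and had passed through transplantation.

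Nothing in the labels says that the 2 arrays of a population came from separate pools of mice, so a p-value here sets a difference against the spread of these arrays alone, which may be technical. In sorted bulk samples, fewer cells of a type and less RNA per cell cannot be told apart. The array medians lay between 4.45 and 4.62, and replicate arrays correlated at 0.973 to 0.99 across genes. The mean over a population's defining markers was highest in the population labelled with it, flt3- CMP for the CMP list, with 1 exception: the 4 EILP markers averaged 7.16 in EILP and 7.32 in NK. Neutrophil granule and alarmin genes (6 markers) averaged 10.08 to 11.88 in the 7 marrow populations, 5.12 in ETP and 4.47 in DN3. Y-linked genes were high and Xist low in CLP, EILP and DN3, and the reverse held in the other 6 populations.

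The promoters of members that rose in the comparisons below are shown first, because sites for the nuclear respiratory factor NRF1 and for ETS family proteins, among them GABP (NRF2), are textbook features of genes for mitochondrial proteins. RefSeq promoter sequences (GRCm38.p6) were matched for 72 of the 89 genes, in 77 windows of 300 bases. These are the 250 bases before the transcription start of 3 genes that rose from HSC to flt3- CMP and whose window overlapped no other gene. Cox6a1 (chr5:115348959-115349208, minus strand) encodes a common complex IV subunit, Ndufb7 (chr8:83566508-83566757, plus strand) an accessory subunit of complex I, and Sdhb (chr4:140961021-140961270, plus strand) the iron-sulfur subunit of complex II. Each is written 5′ to 3′ on the gene's strand, and capitals mark matches on either strand to the NRF1 consensus site, the ETS core CCGGAAG or the box CCAAT.
Cox6a1: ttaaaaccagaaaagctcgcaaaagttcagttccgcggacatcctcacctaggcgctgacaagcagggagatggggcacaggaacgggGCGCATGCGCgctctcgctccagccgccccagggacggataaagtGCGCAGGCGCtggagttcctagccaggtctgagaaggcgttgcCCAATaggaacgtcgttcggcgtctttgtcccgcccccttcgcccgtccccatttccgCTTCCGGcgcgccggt
Ndufb7: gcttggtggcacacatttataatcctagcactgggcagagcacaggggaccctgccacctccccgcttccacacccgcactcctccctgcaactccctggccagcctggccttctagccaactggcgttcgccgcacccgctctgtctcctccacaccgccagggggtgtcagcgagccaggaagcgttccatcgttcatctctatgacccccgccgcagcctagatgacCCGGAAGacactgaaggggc
Sdhb: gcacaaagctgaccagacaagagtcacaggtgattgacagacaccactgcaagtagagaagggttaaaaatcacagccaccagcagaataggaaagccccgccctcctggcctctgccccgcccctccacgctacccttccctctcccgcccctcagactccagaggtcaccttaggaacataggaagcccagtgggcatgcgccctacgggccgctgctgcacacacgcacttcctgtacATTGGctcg
The bases shown hold 2 NRF1 matches, 1 ETS match and 1 CCAAT match for Cox6a1, 1 ETS match for Ndufb7 and 1 CCAAT match for Sdhb. The 50 bases past the Sdhb start, not shown here, also hold an ETS match. Over the whole windows of the members, which run 50 bases past the start, 23.4% held an NRF1 match, against 4.6% of all 32851 windows and 6.38% of those of protein-coding genes. An ETS match stood in 24.7% of the members' windows, against 8.86% of all and 11.6% of those of protein-coding genes. The letters AAGATGGC, a site of the factor YY1, stood in 13% against 2.75% and 3.05%. CCAAT was about as frequent in the members (40.3%) as in all windows (37.4%) or those of protein-coding genes (38.2%). Both strands were searched and matches of different motifs were counted separately. A match is a string of letters, and binding was not measured here. Cox6a2, Ndufa2 and Ndufb9 are among the members whose promoters were not matched.

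Nearly all of the genes were measured well above the middle of the scale. 79 of the 89 had every population mean above 4.54, the median of all values, and 6 had every mean below it: the testis or muscle isoforms Cox7b2, Cox8b and Cox8c, the complex IV-related Ndufa4l2, and the pseudogenes Atp5c1-ps and Uqcrh-ps1. The spread across populations was modest. The range of a gene's 9 population means had a median of 0.68 log2 units over the members, against 0.63 over all genes and 0.89 over the 12985 genes with at least 1 population mean above the median. It ran from 0.17 for Ndufs4, a complex I subunit, to 3.36 for Cox6a2, the muscle form of a complex IV subunit. For 70 of the 89 genes this range was wider than the largest gap between replicate arrays of any population.

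flt3- CMP was most often the highest population and ETP the lowest. The mean was highest in flt3- CMP for 49 of the 89 members (2877 of all 22180 genes) and lowest in ETP for 36 (2386 of all genes). Both held for 25 members (28.1%), against 2.8% of all genes and 4.47% of those above the median in some population. After each gene was centred on the mean of its population means, the median over the members was 0.24 and 0.25 on the flt3- CMP arrays and -0.18 and -0.17 on the ETP arrays. All other arrays lay between: 0.05 and 0.10 in flt3+ CMP, 0.12 and 0.05 in DN3, 0.00 and 0.03 in HSC, 0.06 and -0.04 in CLP, -0.05 in EILP, -0.09 and -0.06 in LMPP, and -0.10 and -0.03 in NK. Only flt3- CMP and ETP stood clear of every other population; the rest overlapped with at least 1 other. The same median over all genes stayed between -0.08 and 0.06.

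**Figure D1:**
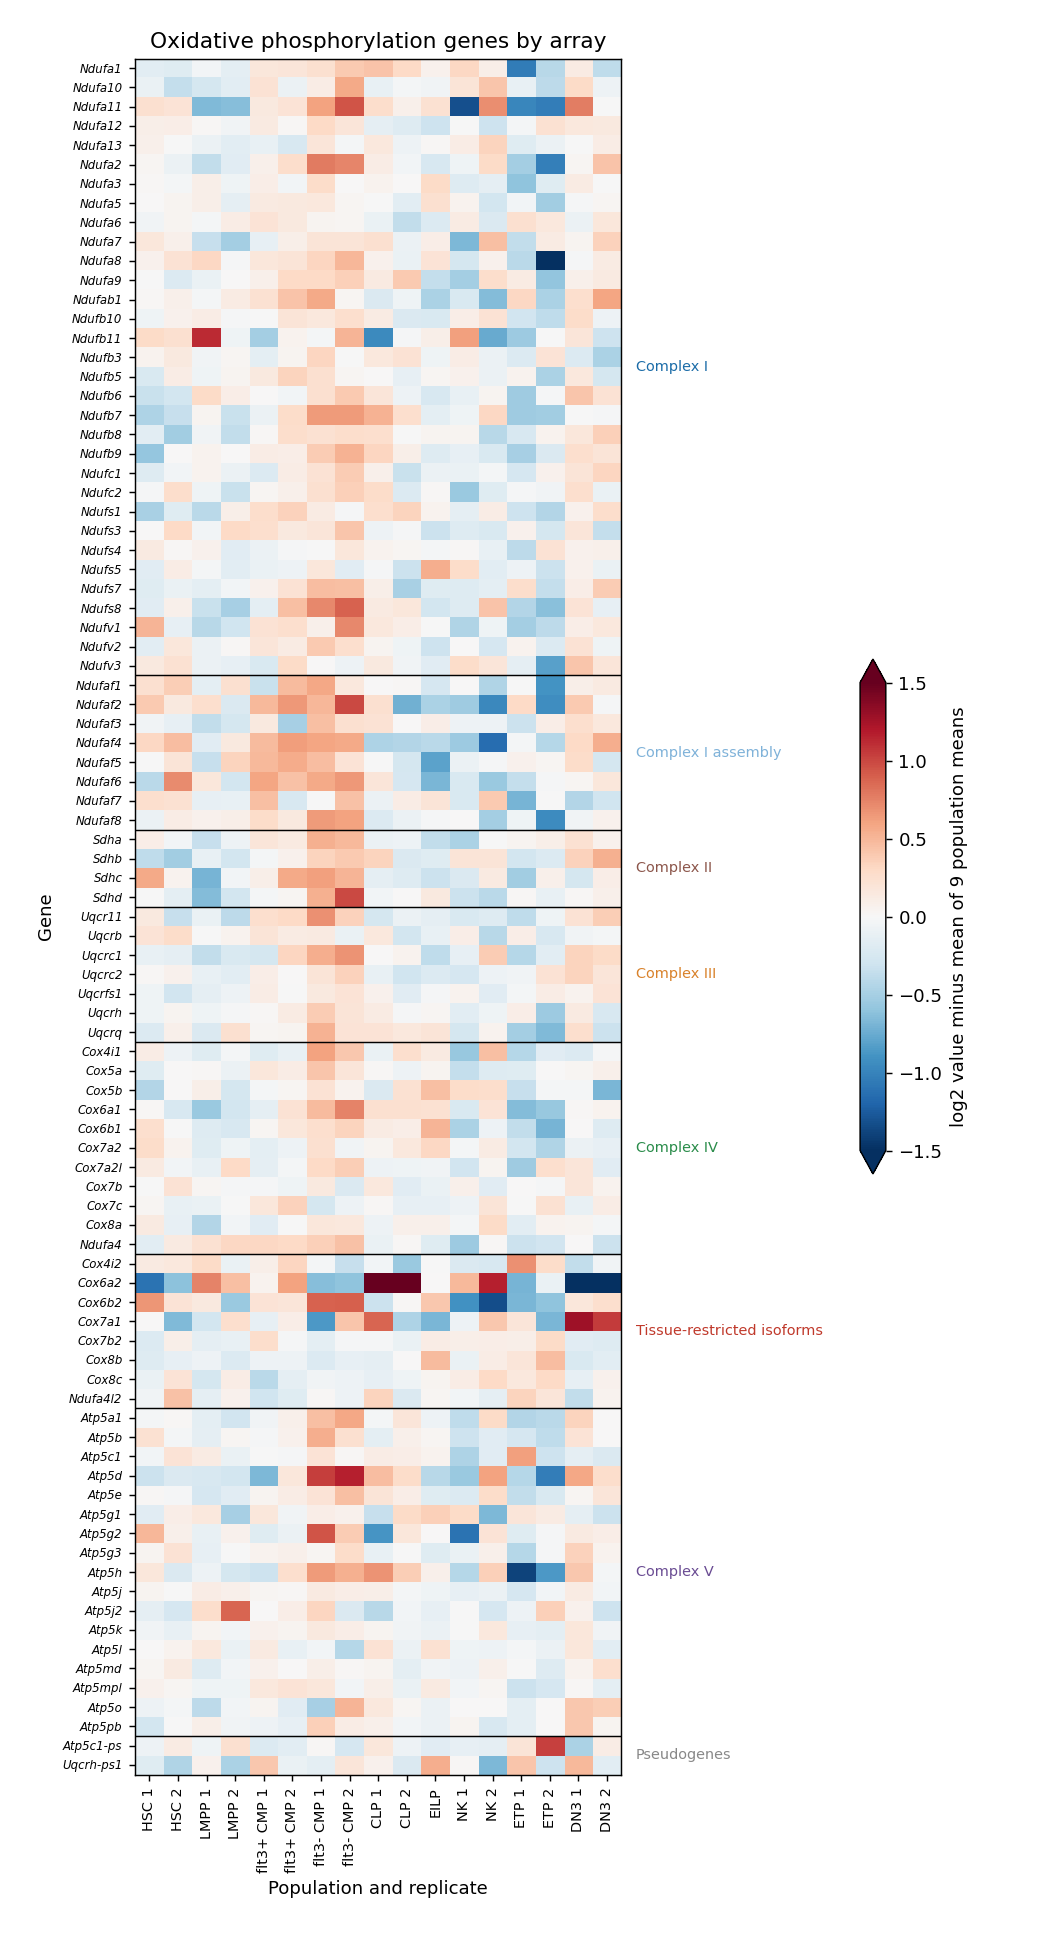
Log2 value of each of the 89 genes (rows, grouped by complex) on each of the 17 arrays (columns), minus the mean of the gene's 9 population means; colours saturate at 1.5 either way. The flt3- CMP columns are mostly red and the ETP columns mostly blue, and Cox6a2 (dark in CLP and DN3) has the widest range, 3.36.

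A moderated F test in limma asked which genes differed among the 9 populations. 16 of the 89 members passed at an adjusted p under 0.05, or 18%, beside a background of 22.7% of all genes tested. Among genes above the median in some population, 4805 of 12985 passed (37%), so the members' share was not above the background. Complex II stood at 3 of 4 genes, complex I at 4 of 32, complex III at 2 of 7, complex IV at 2 of 11, complex V at 2 of 17, the assembly factors at 1 of 8 and the restricted isoforms at 2 of 8. The smallest adjusted p-values belonged to the isoforms Cox6a2 (1.69e-05) and Cox6b2 (0.000527) and to the assembly factor Ndufaf4 (0.000956). The number passing was 8 without the second flt3- CMP array and 12 to 19 without any other single array.

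Of the complex I genes, Ndufb7, Ndufa2, Ndufs8 and Ndufa1 passed the F test. Ndufb7, an accessory subunit of the membrane arm, read 9.07 and 9.07 on the flt3- CMP arrays, 7.96 and 8.09 on the HSC arrays and 7.89 and 7.90 on the ETP arrays. Ndufs8, a core subunit that carries iron-sulfur clusters, had its highest mean in flt3- CMP (8.47) and its lowest in ETP (7.13; F test adjusted p = 0.017). Ndufa2, an accessory subunit of the matrix arm, followed the same order, with 9.51 in flt3- CMP and 7.99 in ETP (adjusted p = 0.00401). The X-linked Ndufa1, an accessory subunit of the membrane arm, was instead highest in CLP (10.52) and lowest in ETP (9.42; adjusted p = 0.0246). The widest range in the complex, 1.78, was that of Ndufa11, but its 2 NK arrays read 7.34 and 9.35, a gap of 2.01, and it did not pass (adjusted p = 0.109). For 18 of the 32 genes the highest mean was in flt3- CMP, and for 17 the lowest was in ETP.

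The assembly factors of complex I, which help build the complex but are not part of it, had a high median in both CMP populations. Their centred median was 0.46 on both flt3+ CMP arrays and 0.53 and 0.50 in flt3- CMP, against -0.33 in EILP and -0.16 and -0.48 in NK. Ndufaf4 read 8.24 and 8.39 in flt3+ CMP, 8.36 and 8.33 in flt3- CMP, 8.07 and 8.22 in HSC and 8.06 and 8.31 in DN3. It was lower in CLP (7.30, 7.33), EILP (7.36) and NK (7.21, 6.62), with LMPP (7.60, 7.91) between and ETP (7.73, 7.34) reaching down to them. The CMP populations, HSC and DN3 thus overlapped at the high end, and CLP, EILP and NK lay apart from them. Ndufaf2 had the widest range of the 8, 1.49, but the ETP arrays differed by 1.23 and it did not pass (adjusted p = 0.101).

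Complex II, succinate dehydrogenase, links the tricarboxylic acid (TCA) cycle to the respiratory chain. Sdhd, one of its membrane anchors, read 7.53 and 7.99 in flt3- CMP, while the other 15 arrays lay between 6.35 (LMPP) and 7.15 (EILP). Sdhb read 7.57 and 7.63 in flt3- CMP and 7.58 and 7.77 in DN3, against 6.87 and 6.72 in HSC. Sdha, the flavin-bearing catalytic subunit, was highest in flt3- CMP (9.30) and lowest in EILP (8.42; F test adjusted p = 0.0431). Sdhc, the other anchor, was also highest in flt3- CMP (7.63) but did not pass (adjusted p = 0.146). In complex III, Uqcrc1, a core protein, passed with 8.60 in flt3- CMP and 7.61 in EILP (adjusted p = 0.0396), and the small subunit Uqcr11 with 7.67 in flt3- CMP and 6.91 in LMPP (adjusted p = 0.0455). 6 of the 7 complex III genes had their highest mean in flt3- CMP.

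In complex IV the common subunits Cox6a1 and Cox6b1 passed. Cox6a1 read 11.05 and 11.32 in flt3- CMP and 9.92 and 10.01 in ETP (F test adjusted p = 0.00749). Cox6b1, a subunit on the intermembrane side, had its highest value in the single EILP array, 10.15, and its lowest mean in ETP, 9.10 (adjusted p = 0.0214). Cox7b had one of the narrowest ranges of all members, 0.22, on the probe set used here. Its second probe set disagreed: it correlated with that one at 0.18, with means from 5.26 in ETP to 6.49 in flt3- CMP. Of the complex V genes, Atp5d, the delta subunit of the central stalk, and Atp5h, the d subunit of the peripheral stalk, passed. Atp5h read 8.47 and 8.99 in ETP, and no other array was below 9.43. Atp5d read 9.87 and 10.00 in flt3- CMP, above every other array, but its replicates parted by up to 1.17 in NK. The second probe sets of Atp5d and Atp5h correlated with those used here at 0.83 and 0.19 over the 17 arrays, so for Atp5h they disagreed.

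**Figure D2:**
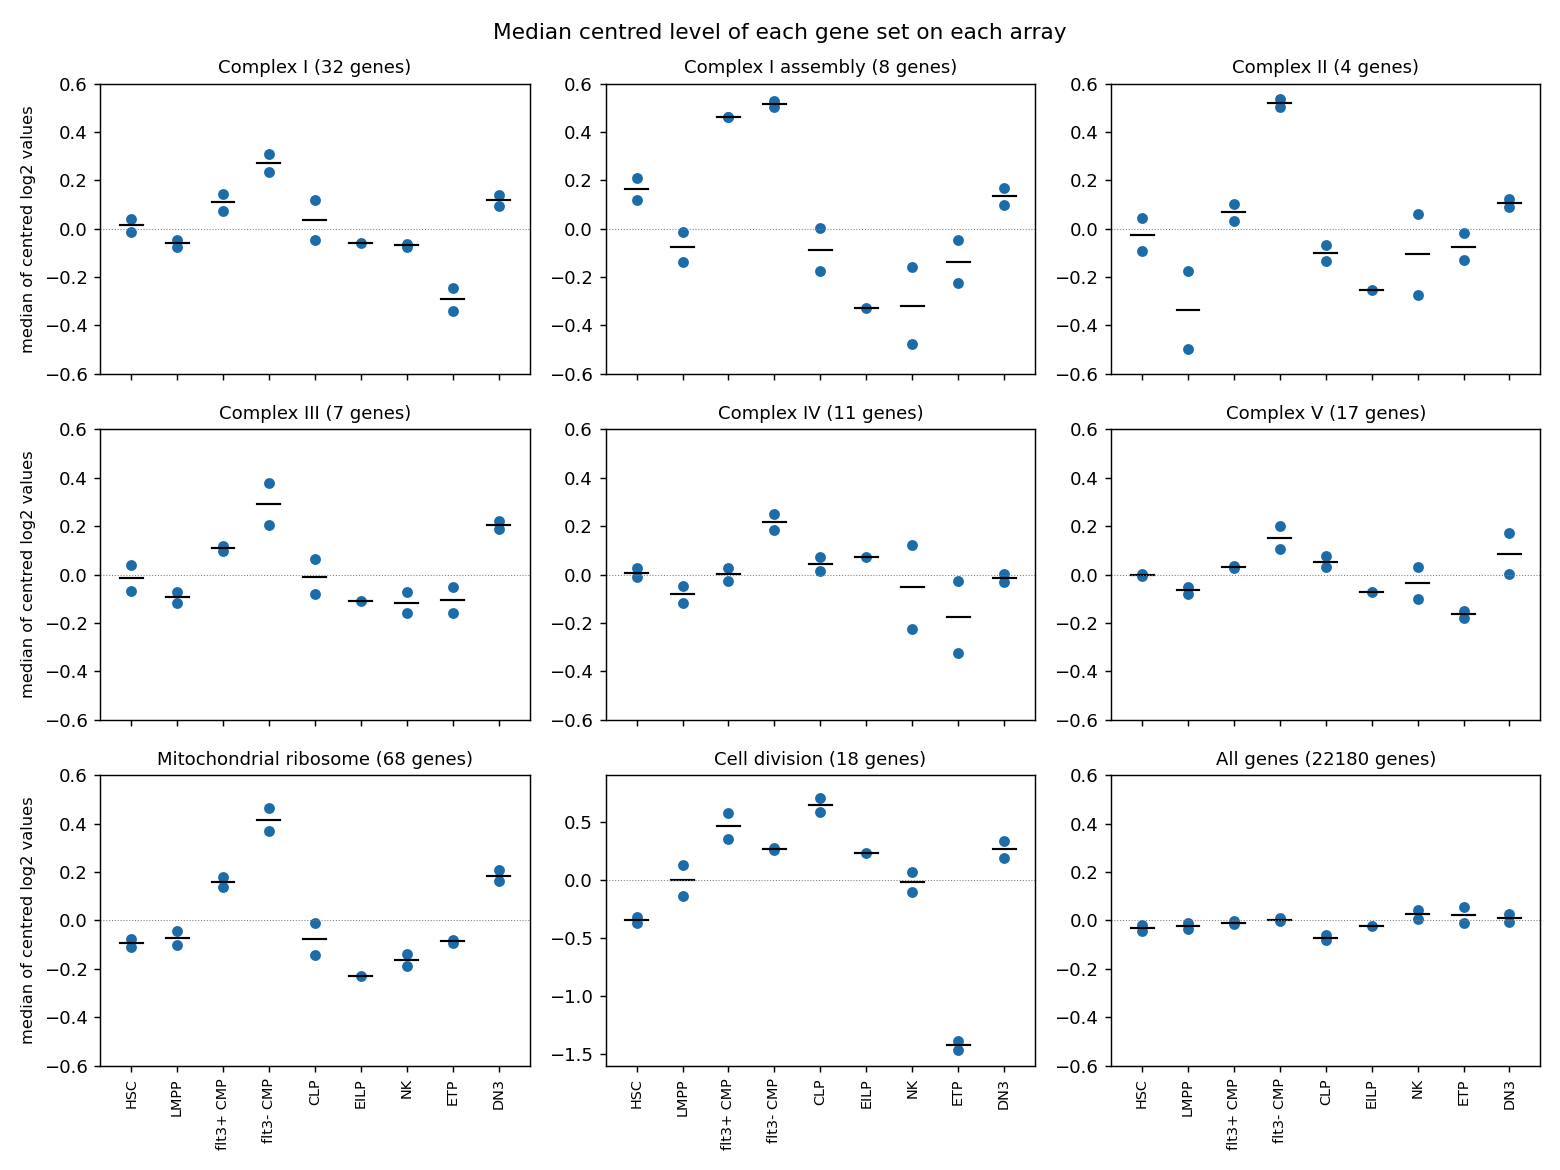
Median over the genes of each set of the log2 value minus the mean of the gene's population means, on each array (points) with the mean of the points of a population (bar); the panel of cell division genes has its own axis. flt3- CMP is the highest population in all 6 complex and assembly panels, and ETP the lowest in complexes I, IV and V.

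From HSC to flt3- CMP, that is from stem cells to myeloid progenitors, 7 of the 89 genes rose and none fell. Over all genes, 2.4% were called higher, 1.82% lower and 4.22% in either direction. The median difference was 0.25 over the members and 0.04 over all genes, and 75 of the 89 differences were positive. The 2 arrays of flt3- CMP lay above both HSC arrays for 50 members and below them for 4, against 28.2% and 19.3% of all genes.

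The genes that rose came from 4 complexes. Atp5d (9.87 and 10.00 against 8.52 and 8.62) differed by 1.36 ± 0.34 log2 units (standard error from limma, adjusted p = 0.0376), or 2.58-fold. Ndufb7, with the values given above, differed by 1.04 ± 0.18 (adjusted p = 0.00683). Its groups did not overlap, nor did those of the other 6. Sdhd (7.53 and 7.99 against 6.99 and 6.86) differed by 0.84 ± 0.17 (adjusted p = 0.0171), and Sdhb by 0.81 ± 0.17 (adjusted p = 0.0197). Ndufa2 (9.54 and 9.49 against 8.79 and 8.67) differed by 0.79 ± 0.20 (adjusted p = 0.0438). For Ndufb9, another accessory subunit of the membrane arm, the values were 10.53 and 10.67 against 9.57 and 10.16, a difference of 0.74 ± 0.19 (adjusted p = 0.0418). It was 0.44 without the first HSC array and 1.04 without the second. Cox6a1, with 11.05 and 11.32 against 10.59 and 10.33, differed by 0.72 ± 0.19 (adjusted p = 0.0484). Complex II thus had 2 of its 4 genes among those that rose and complex I 3 of 32, while none of the 7 complex III genes passed, although Uqcrc1 (0.73 ± 0.20, adjusted p = 0.0642) and Ndufs8 of complex I (0.85 ± 0.23, adjusted p = 0.0545) came near.

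The calls depended on single arrays. None remained without the first HSC array or without the second flt3- CMP array, 1 without the first flt3- CMP array, 2 without the second HSC array, 3 without either LMPP or either CLP array, and 4 without either DN3 array. Quantile normalization left 1 (Ndufb7) and 64 positive differences. Neutrophil markers moved the other way (1 of 6 fell, median -0.57; array means 10.92 to 11.02 in HSC and 10.26 to 10.29 in flt3- CMP), and of 18 cell division genes 1 rose (median 0.58). Their part in the result was not tested.

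Genes of some other mitochondrial lists also passed in this comparison, where 2.4% of all genes were called higher. Of 16 TCA cycle genes 3 rose and none fell: Mdh2 by 1.03 ± 0.18, Fh1 by 0.85 ± 0.18 and Idh3g by 0.63 ± 0.15, with a median over the list of 0.45. Of 68 mitochondrial ribosomal protein genes 13 rose and none fell (median 0.54), led by Mrpl34 (1.27 ± 0.23), Mrpl37 (1.22 ± 0.19) and Mrps27 (1.14 ± 0.20). The growth regulator Myc rose by 0.68 ± 0.15, the only one of 19 regulators of mitochondrial gene expression to pass. Coq7, of ubiquinone synthesis, rose by 0.86 ± 0.21. Of 28 assembly factors outside the symbol rule, none rose and Ttc19, a complex III factor, fell by 1.03 on the log2 scale.

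Between the myeloid progenitors the direction turned. 71 of the 89 differences, flt3+ CMP minus flt3- CMP, were negative, with a median of -0.17 (-0.02 over all genes), and 50 members lay lower on both flt3+ CMP arrays against 24.9% of all genes. No member passed in limma, where 0.108% of all genes were called (0.0451% higher, 0.0631% lower), and 15 members (13 lower, 2 higher) had an unadjusted p under 0.05, as 9.31% of all genes did. Sdhd came nearest, with 6.97 and 7.03 in flt3+ CMP against 7.53 and 7.99, a difference of -0.76 ± 0.17 (adjusted p = 0.13). Cox6a2 went the other way: 7.51 and 8.06 in flt3+ CMP and 6.82 and 6.86 in flt3- CMP, a difference of 0.94 ± 0.27 (adjusted p = 0.241). This comparison uses the same flt3- CMP arrays as the one with HSC. With quantile normalization 62 differences were negative.

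**Figure D3:**
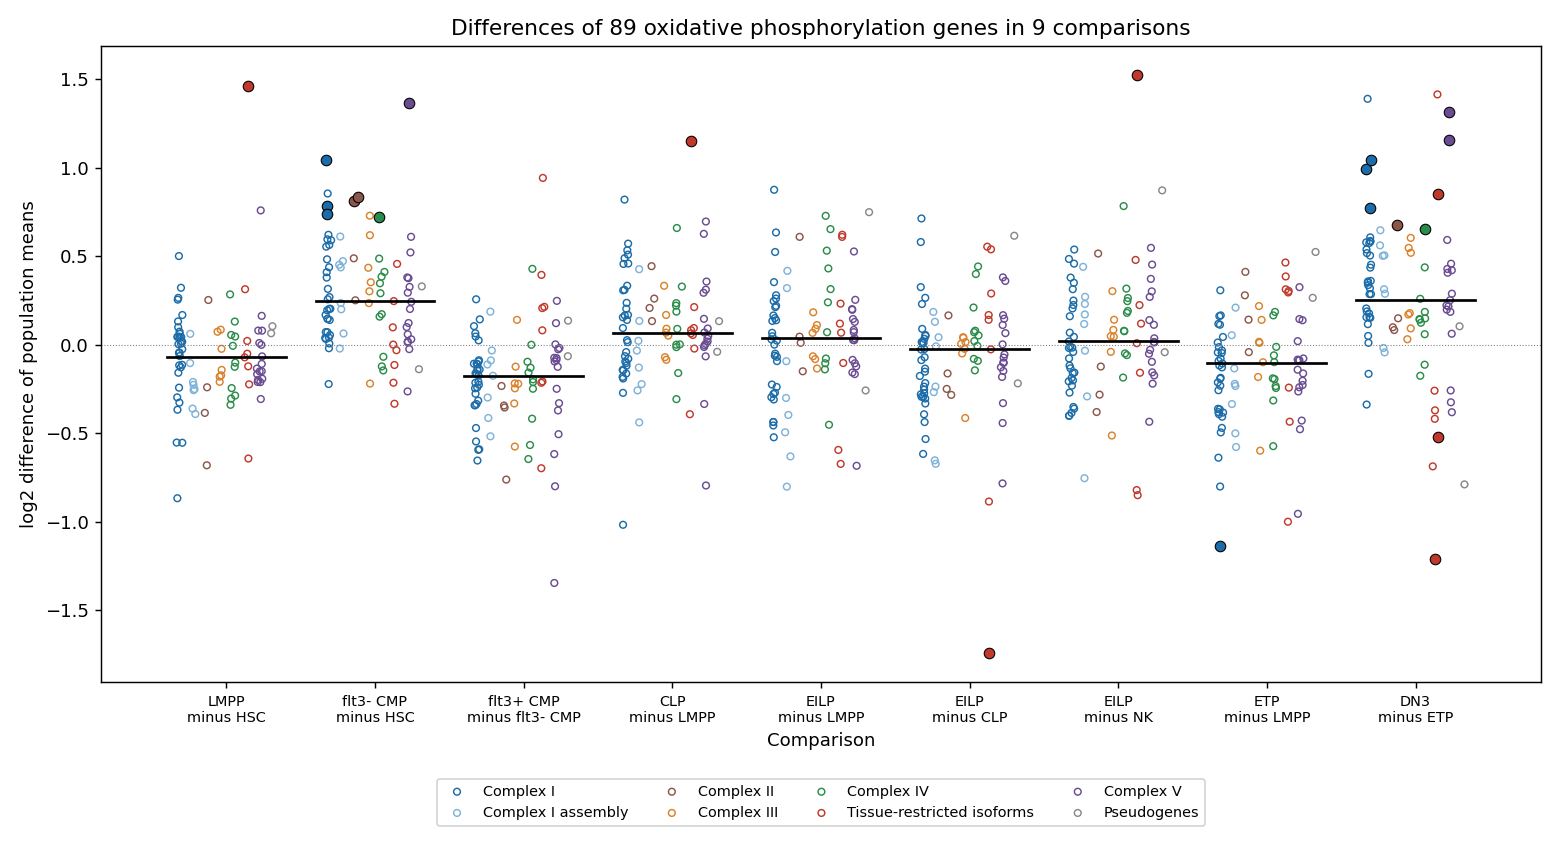
Log2 difference of population means of each of the 89 genes in the 9 comparisons, coloured by complex; filled points passed at an adjusted p under 0.05 and the bar is the median over the members. The medians furthest from 0 are 0.25 (flt3- CMP minus HSC and DN3 minus ETP) and -0.17 (flt3+ CMP minus flt3- CMP).

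Along the lymphoid branch of the marrow, only Cox6a2 passed. From HSC to LMPP it rose (1 of 89; 0.275% of all genes were called higher, 0.325% lower and 0.6% either way), and 54 of the 89 differences were negative (median -0.07, all genes 0.01). From LMPP to CLP it rose again (1 of 89; 3.75% of all genes higher, 2.2% lower, 5.96% either way), a call lost without either array of LMPP or CLP; without either NK array 3 members passed, Cox6a1 and Ndufa11 with it. The median there was 0.07, -0.03 with quantile normalization and 0.17 with centred arrays, so it had no settled sign. Cox6a1 came near in that comparison, with 10.82 on both CLP arrays and 10.02 and 10.30 in LMPP, a difference of 0.66 ± 0.19 (adjusted p = 0.0586). Both comparisons share the LMPP arrays. Cell division genes rose from LMPP to CLP in 7 of 18 cases, and 3 of 6 neutrophil markers rose (array means 10.87 to 10.94 in LMPP and 11.66 to 11.82 in CLP). The red cell marker Slc4a1 rose by 2.30. The Y-linked Eif2s3y, Kdm5d and Uty differed by 5.31, 3.91 and 2.36, and Xist by -2.35. The part of these was not tested. Of the TCA cycle genes, Cs (0.79 ± 0.19) and Suclg2 (-1.19 ± 0.28) passed from LMPP to CLP.

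EILP was set against LMPP, CLP and NK, each time as a single array against 2, so limma took its spread from the other populations. Against LMPP no member passed (3.9% of all genes did, 2.1% higher and 1.79% lower), 9 had an unadjusted p under 0.05 (14.4% of all genes did), and the median difference was 0.04. Without the first LMPP array 1 member passed, Ndufaf5, a complex I assembly factor. Cox6b1 had 10.15 in EILP and 9.45 and 9.39 in LMPP, a difference of 0.73 ± 0.22 (adjusted p = 0.0866). Against CLP only Cox6a2 passed, as lower (0.325% of all genes were lower, 0.0406% higher and 0.365% either), and the median was -0.03. Against NK only Cox6b2 passed, as higher (1.57% of all genes were higher, 1.91% lower and 3.48% either), and the median was 0.02. The 3 comparisons share the EILP array, and on the deposited scale in none of them did the members' median lie farther than 0.04 from 0. With centred arrays it was -0.12 against CLP, where 67 of the 89 differences were negative, and 0.07 against NK; with quantile normalization it was 0.04 and 0.04. The neutrophil markers Ltf and Mmp8 were higher in EILP than in LMPP (2.09 and 1.76), as was Slc4a1 (1.87), the 1 red cell marker measured, and Ltf was higher than in NK (1.42). The array means of the 6 neutrophil markers were 11.88 in EILP, 10.87 to 10.94 in LMPP and 11.09 to 11.30 in NK. Against LMPP and against NK the 3 Y-linked genes were higher and Xist lower; none of the 18 cell division genes passed in any of the 3 comparisons. The part of these in the results was not tested. Among related genes outside the rule, Coq2 of ubiquinone synthesis was lower in EILP than in LMPP (-2.13 ± 0.33, adjusted p = 0.00244) and NK (-1.33 ± 0.33, adjusted p = 0.0455). Ppargc1a, which encodes the coactivator PGC-1α and had every mean below the median of all values, was also lower than in LMPP (-1.45 ± 0.25, adjusted p = 0.00483) and NK (-1.61 ± 0.25, adjusted p = 0.0021). It was lower than in LMPP in CLP (-1.20 ± 0.20) and ETP (-1.17 ± 0.20) as well. Mrps27 (-1.36 ± 0.25), Myc (-1.07 ± 0.19) and the complex IV assembly gene Cox16 (adjusted p = 0.0165) were lower in EILP than in LMPP. Myc (-0.62 ± 0.15) and Cox16 (-0.64 ± 0.17) were also called lower in CLP than in LMPP.

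In the thymus the members were at their lowest in ETP. From LMPP to ETP, 60 of the 89 differences were negative (median -0.11, all genes 0.04) and only Ndufa8, an accessory complex I subunit on the intermembrane side, passed as lower (2.4% of all genes were lower, 1.02% higher and 3.42% either). Its arrays read 9.15 and 7.98 in ETP against 9.87 and 9.54 in LMPP, a difference of -1.14 ± 0.28 (adjusted p = 0.0413). That value rests on the second ETP array, without which the difference is -0.55, and the call was also lost without any single HSC, LMPP, CMP, CLP or DN3 array. Without the second ETP array Cox6a2 and Ndufa1 passed in its place; without the first Ndufaf8 passed beside it, and without either NK array Cox6a2 and Atp5h did. In the same comparison 16 of 18 cell division genes fell (median -1.38), and all 6 neutrophil markers fell (array means 4.94 to 5.31 in ETP). Their part was not tested.

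From ETP to DN3, the stage at which thymocytes have committed to the T lineage, 8 members rose and 2 fell. Over all genes 5.2% rose, 3.53% fell and 8.73% moved either way. The median difference was 0.25 over the members and -0.03 over all genes, 73 of the 89 differences were positive, and 47 members lay higher on both DN3 arrays (22.2% of all genes). This comparison shares no array with that of HSC and flt3- CMP, although both draw on the same estimate of spread.

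The members that rose came from complexes I, II, IV and V. Atp5h, at 10.26 and 9.83 in DN3 against 8.47 and 8.99 in ETP, differed by 1.32 ± 0.28 (adjusted p = 0.00873); with the mean of its 2 probe sets the difference was 0.69 (adjusted p = 0.0402). Atp5d (9.41 and 9.10 against 8.40 and 7.80) differed by 1.15 ± 0.34 (adjusted p = 0.0495). Ndufa2 (8.78 and 9.18 against 8.25 and 7.74) differed by 0.99 ± 0.20 (adjusted p = 0.00628). In each of these the DN3 arrays lay above both ETP arrays. Ndufa8, at 9.54 and 9.68 against 9.15 and 7.98, differed by 1.04 ± 0.28 (adjusted p = 0.0336), and Ndufv3, an accessory subunit of the NADH-binding module, by 0.77 ± 0.22 (7.16 and 6.92 against 6.61 and 5.93; adjusted p = 0.0412). For both of these the second ETP array was well below the first, and without it the differences were 0.46 and 0.43. With the mean of its 2 probe sets Ndufa8 did not pass. Sdhb rose by 0.67 ± 0.17 (adjusted p = 0.0275), Cox6a1 by 0.65 ± 0.19 (adjusted p = 0.0475) and the isoform Cox6b2 by 0.85 ± 0.23 (adjusted p = 0.0346). Cox6a2 fell by 1.21 ± 0.27 on the log2 scale (adjusted p = 0.0114), and Cox8b, which lay below the median of all values in every population, by 0.52 ± 0.15 (adjusted p = 0.0448). None of the 7 complex III genes passed, though all 7 differences were positive, with a median of 0.18.

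The count fell from 10 to 1 without the first DN3 array, to 2 without the second, to 5 without the second ETP array or either flt3- CMP array, and to 6 without either LMPP array. Quantile normalization left 3 calls (2 higher, 1 lower) and 65 positive differences, and centred arrays gave 10 higher and 1 lower. With dim genes left out 11 members passed, Cox7a1 and Ndufa11 among them. All 18 measured cell division genes rose in the same comparison (median 1.59; centred array medians -1.47 and -1.39 in ETP, 0.34 and 0.19 in DN3). The neutrophil marker S100a9 fell (array means of the 6 markers 4.94 to 5.31 in ETP, 4.15 to 4.79 in DN3), and 3 Y-linked genes rose while Xist fell. The part of these in the result was not tested. The X-linked members Ndufa1 (0.61 ± 0.21), Ndufb11 (0.20 ± 0.46) and Cox7b (0.12 ± 0.17) did not pass.

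Of the 16 TCA cycle genes 5 rose from ETP to DN3 and none fell (median 0.36), led by Cs, citrate synthase (1.02 ± 0.19), Dlst (0.92 ± 0.22) and Dlat (0.84 ± 0.23). Of the 68 mitochondrial ribosomal protein genes 10 rose and none fell (median 0.30). Tefm, a mitochondrial transcription elongation factor, rose by 1.24 ± 0.24, and Lrpprc, which stabilises mitochondrial mRNA, by 1.11 ± 0.19. The ADP/ATP carrier gene Slc25a5 rose by 0.89 ± 0.17. The complex IV assembly genes Cox18 (0.91 ± 0.25) and Cox10 (0.84 ± 0.23) rose as well, as did Coq7 (0.90 ± 0.21).

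Among the 7 members that rose from HSC to flt3- CMP and the 8 that rose from ETP to DN3, 4 were shared: Atp5d, Cox6a1, Ndufa2 and Sdhb. They make up 57.1% of the first list and 50% of the second. This overlap depended on the processing. With quantile normalization, or with all probe sets of the table tested, no member was called higher in both comparisons. With the replicate number as a block, Ndufa2 was not called in the marrow comparison, nor Atp5d in the thymus one. Of the 532 and 1154 genes called higher over the whole table, 182 were shared, or 34.2% and 15.8%. 66 of the 89 differences (74.2%) were positive in both comparisons and 7 (7.87%) negative in both, where 75 and 73 were positive in each alone; over all genes 30% were positive and 27.3% negative in both. Among the 12985 genes above the median in some population, 36.8% were positive and 25.4% negative in both. Across the 89 genes, which are not independent replicates, the Pearson correlation of the differences was 0.52. It was 0.26 across all genes and 0.28 across those 12985. Ndufb7, Ndufb9 and Sdhd rose in the marrow comparison without passing in the thymus one. There they differed by 0.52 ± 0.18 (adjusted p = 0.109), 0.58 ± 0.19 (adjusted p = 0.0739) and 0.10. Atp5h, Ndufa8, Ndufv3 and Cox6b2 passed in the thymus comparison and not in the marrow one; the difference between the comparisons was not tested.

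**Figure D4:**
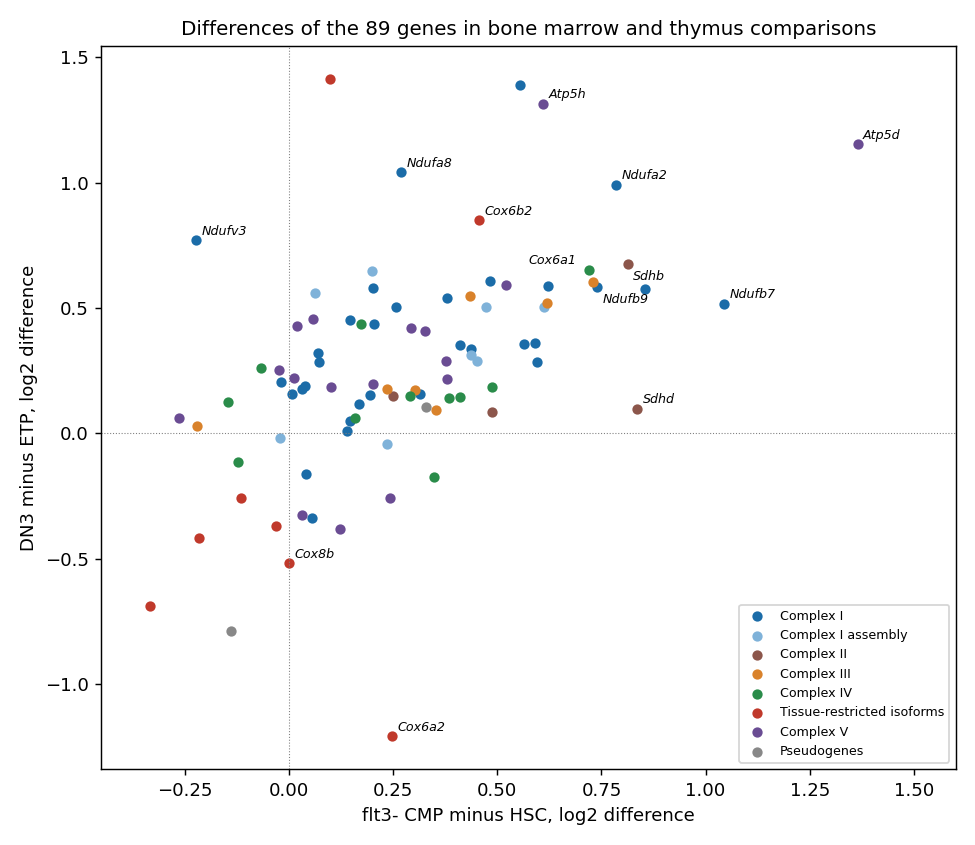
Log2 difference of each of the 89 genes from HSC to flt3- CMP (horizontal axis) and from ETP to DN3 (vertical axis), coloured by complex, with the genes named that passed in either comparison. 66 genes lie in the upper right part, where both differences are positive, and Cox6a2 lies lowest, at -1.21 from ETP to DN3.

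Of the 8 tissue-restricted isoforms of complex IV, Cox6a2 and Cox6b2 passed the F test. The median of the 8 over the 17 arrays correlated at -0.54 with that of all members, of which they are a part, but 4 of them lay below the median of all values everywhere. Complexes I, V, III, II and IV correlated with it at 0.96, 0.91, 0.89, 0.80 and 0.73. Each complex is also a part of all members, complex I with 32 of the 89. High values are thus partly built in and do not show that the complexes moved together. These values describe arrays that share their normalization. Cox6a2, known from heart and skeletal muscle, read 9.19 and 9.22 in CLP, 7.95 and 8.62 in NK, 8.20 and 7.91 in LMPP, 7.51 and 8.06 in flt3+ CMP and 7.46 in EILP. Lower still were ETP (6.76, 7.36), flt3- CMP (6.82, 6.86), HSC (6.35, 6.84) and DN3 (5.73, 5.96). CLP stood above and DN3 below all other arrays, and NK, LMPP and flt3+ CMP overlapped, as did ETP, flt3- CMP and HSC.

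Cox6a2 rose from HSC to LMPP by 1.46 ± 0.27 (adjusted p = 0.0244) and from LMPP to CLP by 1.15 ± 0.27 (adjusted p = 0.0203). It was lower in EILP than in CLP by 1.74 ± 0.33 (adjusted p = 0.0382), and it fell from ETP to DN3 as given above. The HSC to LMPP call was lost without the first HSC array or either LMPP array. The CLP to EILP call was lost without either CLP, DN3, LMPP or flt3- CMP array and with quantile normalization. Its common counterpart Cox6a1 did not follow: EILP minus CLP was -0.01 ± 0.23 (adjusted p = 0.998), and from ETP to DN3 it rose. Cox6a2 lies within the gene Itgad in the GRCm38.p6 annotation, and whether its probe set also reads that gene was not tested.

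Cox6a2 is also known from plasmacytoid dendritic cells, so 6 markers of these cells were read beside it; this list was chosen after its values had been seen. Their mean was 6.72 to 7.10 on the CLP arrays and 6.65 in EILP, between 5.15 and 6.12 in every other population. Siglech, the defining marker, had a mean of 7.05 in CLP, 5.94 in EILP, 5.41 in LMPP and 4.01 in DN3, and over the 17 arrays it correlated with Cox6a2 at 0.83. Irf8 correlated at 0.80, Klk1 at 0.34, Pld4 at 0.19, Bst2 at -0.29 and Ccr9 at -0.37. No p is attached to these correlations, which span populations, and the part of such cells in the Cox6a2 values was not tested.

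Cox6b2, known from testis, had every population mean above the median of all values. It read 9.14 and 9.15 in flt3- CMP, 8.91 and 8.46 in HSC, 8.65 in EILP, 8.42 and 8.50 in DN3 and 8.46 and 8.43 in flt3+ CMP. Next came CLP (7.93, 8.27), LMPP (8.39, 7.69), ETP (7.57, 7.65) and NK (7.34, 6.92). NK lay below and flt3- CMP above all other arrays. The HSC arrays spanned EILP and reached those of DN3, and LMPP spanned CLP. EILP exceeded NK by 1.52 ± 0.28 (adjusted p = 0.00765), and this call held in all 23 alternatives that kept the other populations or all but 1 array. A fit of these 2 populations alone called no member, and without the second NK array 3 members passed. The common form Cox6b1 read 10.15 in EILP and 9.16 and 9.57 in NK, a difference of 0.78 ± 0.22 (adjusted p = 0.0684).

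**Figure D5:**
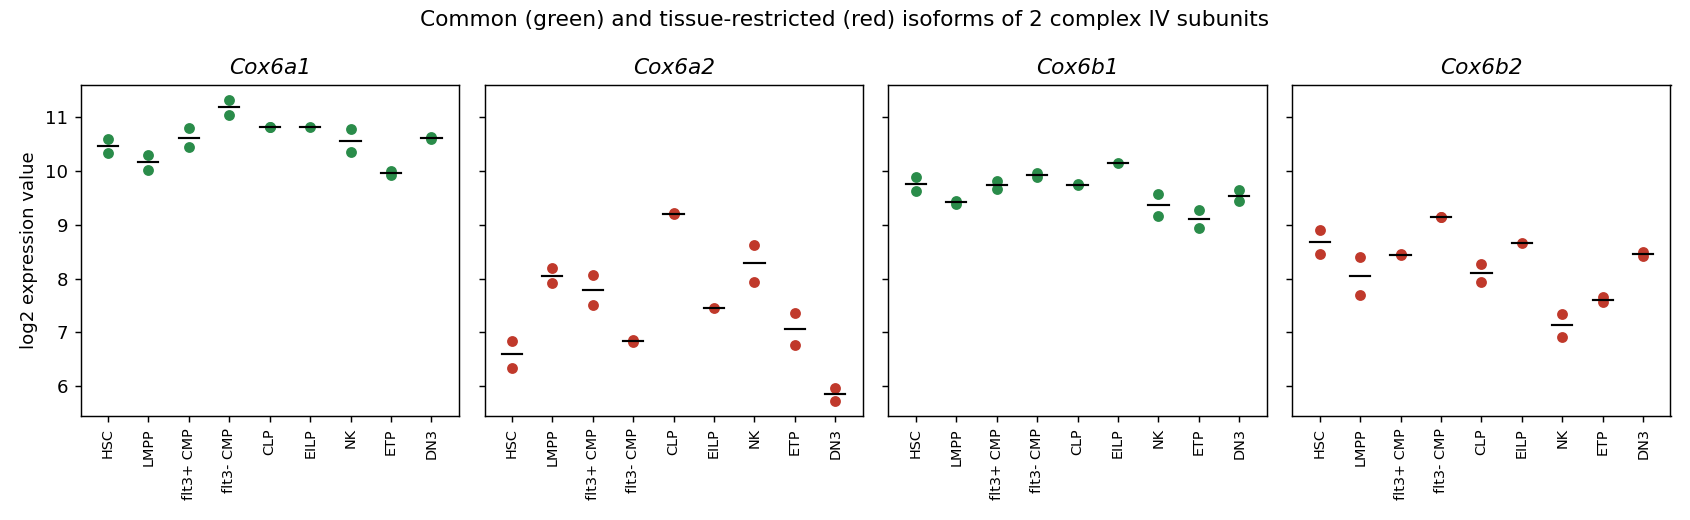
Log2 expression value of the common forms Cox6a1 and Cox6b1 (green) and the restricted forms Cox6a2 and Cox6b2 (red) on each array, with the population mean as a bar; EILP has 1 array. Cox6a2 peaks in CLP at 9.21 and is lowest in DN3 at 5.85, and Cox6b2 is lowest in NK at 7.13.

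The remaining restricted isoforms were dim, apart from Cox7a1 in DN3. Cox7a1, the heart and muscle form of a subunit whose common form is Cox7a2, read 6.25 and 6.03 in DN3, while its other population means lay between 4.30 and 5.18. The CLP arrays differed by 1.34, and neither the F test (adjusted p = 0.234) nor the ETP to DN3 difference (1.41 ± 0.46, adjusted p = 0.0791) passed. With dim genes left out of the test, Cox7a1 was called higher in DN3 than in ETP. Cox4i2, the lung form, had means of 4.29 to 5.07. Cox7b2, Cox8b, Cox8c and Ndufa4l2 stayed below the median of all values in every population, while their common counterparts Cox7b, Cox8a and Ndufa4 stayed above it.

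Over the 17 arrays the members' median correlated at 0.93 with that of the TCA cycle genes, 0.86 with that of the mitochondrial ribosome and 0.63 with that of cell division genes. For the 12985 genes above the median in some population the value was 0.76, for all genes -0.05, and for the neutrophil markers 0.16. Each of these is a description over arrays of 9 populations. The centred medians of the cell division genes were lowest in ETP (-1.47 and -1.39) and highest in CLP (0.58 and 0.71), where those of the members were -0.18 and -0.17, and 0.06 and -0.04; the part of cell division in the members' levels was not tested.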

How the data were processed

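RNA of 17 samples was hybridised to Affymetrix Mouse Gene 2.0 ST arrays after Trizol extraction and NuGEN amplification, per the labels. The authors deposited a table of log2 expression values for 41345 probe sets, made with Affymetrix Expression Console per the submitters' processing notes; its version and algorithm were not given in the sources used here, and the log2 unit was read from the deposited values. 23521 probe sets had 1 gene symbol in the platform annotation; those that had several (1814) or none (16010) were not used, which removed Cox6c, Ndufb2, Ndufb4, Ndufs6 and Uqcr10. The probe set of highest mean was kept per gene (22180 genes; 9 of the 89 members had several). A probe set summarises many probes, so a gene's level was set only against the median of all values and not directly against another gene's. The 17 arrays limit the precision: the median standard error of a difference was 0.20, or 0.24 with EILP.

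Values were not renormalised. limma 3.58.1 in R 4.3.3 fitted 1 mean per population to all 17 arrays (8 residual and 5.33 prior degrees of freedom), with two-sided moderated tests and Benjamini-Hochberg adjustment over all genes, called at an adjusted p under 0.05. The script was tested on simulated data. Promoters, overlaps and figures used Python 3.11.15. Groups came from sample titles, and replicate numbers were not used as pairs: same-numbered arrays correlated at -0.07 to 0.09 in their deviations over 28 pairs of populations. Alternatives were centring, quantile normalization, a filter on dim genes, other probe set rules, another variance prior, a replicate block, fits of the compared populations alone and leaving out each array.

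Named members were the 15 with the smallest F test p, those called (at most 6 per direction of a comparison where more passed, by size), the widest range in each complex, the restricted isoforms with their counterparts and the genes below the median everywhere. Cox6a1 in the flt3- CMP comparison and Sdhb and Cox6a1 in the DN3 comparison, and other members outside that rule (Sdhc, Uqcr11, Ndufaf1, Ndufaf3, Ndufaf5, Ndufaf7, Ndufaf8, Ndufb11, Ndufs4), were named after their values were seen. The members and gene lists were chosen with earlier results of these data known. Gene overlaps were read from the RefSeq annotation of GRCm38.p6. Of the 33 members named by rule, 7 overlap another protein-coding gene, among them Atp5d (Cbarp), Ndufa2 (Tmco6) and Ndufa1 (Rnf113a1). Strand was not tested, nor whether their probe sets also read the other gene.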

Additional observations from a re-analysis of the deposited data

How the results depend on the processing

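With 2 arrays per population and 1 for EILP, a difference that did not pass is not shown to be absent, and the depth of a probe set is not known. The median difference over the members went from 0.25 to 0.14 from HSC to flt3- CMP, from 0.25 to 0.17 from ETP to DN3 and from -0.17 to -0.11 between the CMP populations with quantile normalization; its sign turned under at least 1 alternative from LMPP to CLP and for EILP against LMPP and CLP. None of the 22 called differences of single members changed direction in the alternatives run. Over the populations, 16 members passed; 8 did with all probe sets of the table tested, and 8 to 19 without single arrays. From HSC to flt3- CMP (7), 1 passed with quantile normalization and 3 with all probe sets, and 0 to 9 without single arrays. From ETP to DN3 (10), 3 passed with quantile normalization, 3 with all probe sets and 6 when only those populations were fitted, and 1 to 13 without single arrays. The single call from HSC to LMPP went to 0 with all probe sets and with only those populations (0 to 1 without single arrays). From LMPP to CLP, 2 passed with centred arrays, another variance prior, or only those populations, and 0 with all probe sets (0 to 3). EILP against CLP gave 0 with quantile normalization, all probe sets or only those populations (0 to 1), EILP against NK 2 with another variance prior and 0 with only those populations (1 to 3), and EILP against LMPP 0 to 1. From LMPP to ETP, 2 passed without dim genes and 0 with quantile normalization, probe set means, all probe sets or only those populations (0 to 3). The CMP comparison gave 0 throughout, leaving out single arrays included. The cause of these changes was not tested.

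With the replicate number as a block, though the numbers do not pair the samples, 2 members passed from LMPP to CLP, 2 from LMPP to ETP, 9 from ETP to DN3, 7 from HSC to flt3- CMP and 15 over the populations. From HSC to flt3- CMP, Ndufa2 was lost and Uqcrc1 gained; from ETP to DN3, Atp5d was lost. The other counts were as reported.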
